A study of Mus musculus with 62 samples.

Results

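Foxa1, Gata3, Grhl3, Elf3, Ehf, Klf4, Klf5, Tbx3 and Ovol1 are transcription factors associated with the luminal layers of the urothelium, the lining of the bladder, and their transcript levels were followed through tissue and cell culture experiments in the mouse. The 9 genes were taken by symbol from every deposited expression table, out of 35199 genes in the 1-month tissue table, 34945 in the 5-day tissue table, 36144 in the first cell experiment and 35360 in the second. All 9 were found in each table, and all 9 passed the filter on low values, which asks for a normalised count of 10 or more in a number of libraries equal to the smallest group.

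The series holds 62 RNA-seq libraries in 15 groups and concerns basal bladder tumours given rosiglitazone, which activates the fatty acid sensor Pparg, and trametinib, which blocks MEK kinases. Every tissue sample is labelled wild type (WT) and comes from mice whose strain, age and dose the labels do not give. Bladder tumours raised with the nitrosamine carcinogen BBN were collected after 1 month of vehicle (3 libraries) or of rosiglitazone with trametinib (4 libraries), and after 5 days of vehicle (3 libraries) or of both drugs (4 libraries). The authors' names for these tumour comparisons carry 5MBBN, which would read as 5 months of BBN. The vehicle was hydroxypropyl methylcellulose at 0.5%, Tween 80 at 0.2% and DMSO at 0.7% in water. A further 3 libraries came from WT mice without BBN, for which no treatment or time is given. The cell experiments used BBN963, a mouse basal bladder cancer line labelled as C57bl/6 WT. In the first, cells were kept for 72 h in DMSO, rosiglitazone, trametinib or both drugs, with 5 libraries each. In the second, they were kept for 24 h or 72 h in DMSO (3 and 3 libraries), in ATRA, the usual abbreviation of the retinoid all-trans retinoic acid (6 and 5 libraries), or in rosiglitazone with trametinib (4 and 4 libraries). All cell results rest on that line alone.

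The urothelium renews from basal cells through intermediate cells to the umbrella cells that face the urine. Foxa1 and Gata3 work with the nuclear receptor Pparg to keep luminal genes on, and basal bladder cancers are known for low levels of these factors and high levels of keratins of the basal and squamous type. Retinoid receptors pair with the same partner, Rxra, as Pparg does.

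Sequencing depth, estimated from the value that 1 read was worth, was 43.8 to 77.7 M reads (M for mega) in the 1-month tissue set, 17.7 to 71.7 M in the 5-day set and 29.7 to 48.0 M in the first cell experiment. It was 4.64 to 29.5 M in the second, where whole reads could be recovered. The labels do not say that libraries of a group came from separate animals or cultures, so p-values measure the spread between these libraries, which may be technical. The tissue libraries carry all 6 epithelial markers examined, and also T cell, macrophage and fibroblast markers, although the labels name urothelial cells as their cell type. The library labelled ATRA 72 h replicate 1 stood apart from its group. On the genes that differed between DMSO at 72 h and 24 h, its mean log2 difference between the higher and the lower genes was 0.07, against 1.10 to 1.15 in the other 4 libraries of its group and -0.04 to 0.12 in the ATRA 24 h libraries. The libraries with both drugs at 72 h were also low on this measure, at 0.26 to 0.40, against 1.29 to 1.37 in DMSO at 72 h. The measure thus varied with treatment as well as time. Over 10588 genes, the root mean square log2 difference of the library labelled ATRA 72 h replicate 1 was 0.28 from the ATRA 24 h libraries and 0.57 from the other 4 libraries of its group. Results of the second cell experiment include this library unless stated, and some changes of the 9 genes are therefore also given without it. The gene lists, the correlations and the most alike genes of that experiment are given only with it.

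RefSeq promoter windows were given for 5 of the 9 members, not for Tbx3, Ehf, Klf5 or Ovol1. Of the 5 windows, 4 are shown first, because Foxa1, Gata3 and Grhl3 were called together in the tissue comparisons and Elf3 had the largest change under ATRA at 24 h. Windows run from 250 bases before to 50 bases after the annotated start, on GRCm38.p6, all on the minus strand, at chr12:57546062-57546361 for Foxa1, chr2:9878551-9878850 for Gata3, chr4:135573583-135573882 for Grhl3 and chr1:135258423-135258722 for Elf3. Capitals mark matches, on either strand, to TGTTTAC (forkhead) or CACCC (Krüppel-like factors).
Foxa1: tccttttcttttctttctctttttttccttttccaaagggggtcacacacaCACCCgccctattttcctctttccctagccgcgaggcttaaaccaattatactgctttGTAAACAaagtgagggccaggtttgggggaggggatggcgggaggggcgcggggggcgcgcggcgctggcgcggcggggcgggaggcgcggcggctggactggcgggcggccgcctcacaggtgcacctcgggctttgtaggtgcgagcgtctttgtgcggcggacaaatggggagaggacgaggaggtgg
Gata3: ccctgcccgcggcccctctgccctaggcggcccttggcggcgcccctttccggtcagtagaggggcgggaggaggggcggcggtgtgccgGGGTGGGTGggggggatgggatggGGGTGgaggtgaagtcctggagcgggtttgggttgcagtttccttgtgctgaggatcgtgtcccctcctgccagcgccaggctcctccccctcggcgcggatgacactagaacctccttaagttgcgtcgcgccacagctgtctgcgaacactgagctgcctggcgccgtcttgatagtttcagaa
Grhl3: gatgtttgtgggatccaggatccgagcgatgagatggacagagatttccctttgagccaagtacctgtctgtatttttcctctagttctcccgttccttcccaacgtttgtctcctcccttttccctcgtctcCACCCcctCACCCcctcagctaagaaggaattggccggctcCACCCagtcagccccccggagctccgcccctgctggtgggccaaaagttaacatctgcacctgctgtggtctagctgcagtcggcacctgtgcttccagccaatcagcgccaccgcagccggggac
Elf3: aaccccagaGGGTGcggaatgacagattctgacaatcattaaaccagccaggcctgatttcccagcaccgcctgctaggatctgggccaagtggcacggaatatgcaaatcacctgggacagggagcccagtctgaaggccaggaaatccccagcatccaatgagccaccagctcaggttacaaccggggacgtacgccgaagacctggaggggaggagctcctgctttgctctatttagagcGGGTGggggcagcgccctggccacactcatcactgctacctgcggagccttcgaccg
The forkhead letters occurred in the Foxa1 window, and in 3.65% of all 32851 promoter windows of this table. CACCC occurred in all 4 windows, 3 times each in those of Gata3 (the first pair overlapping) and Grhl3, and in 57.5% of all windows. None of the 4 held AGGTCA, a nuclear receptor motif found in 16.3% of all windows, or TGANTCA, the AP-1 motif (7.81%). The letters AGATAA of GATA factors (11.2%), ACCGGTT of grainyhead factors (1.02%) and ACAGGAA of ETS factors (8.67%) were not in these windows either. The Klf4 window, the fifth available, held none of the 7 motifs. The Foxa1 and Gata3 windows lie wholly inside the genes as GENCODE annotates them, with upstream edges 555 and 11184 bases downstream of the gene start, so neither covers the outermost promoter.

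On GRCm38 (GENCODE M21), Foxa1 lies at chr12:57540628-57546916 and Gata3 at chr2:9857078-9890034, both on the minus strand. Grhl3 lies at chr4:135541888-135573630, Elf3 at chr1:135253575-135258568, Ehf at chr2:103263433-103303278 and Klf4 at chr4:55527143-55532466, on the minus strand too. Klf5 at chr14:99298691-99315036 and Tbx3 at chr5:119670669-119684724 are on the plus strand, and Ovol1 at chr19:5549136-5560646 on the minus strand. Exonic bases shared with other annotated genes number 155 for Gata3 with Gm13256 and 77 with 9230102O04Rik, 162 for Elf3 with Gm26642 and 115 for Tbx3 with Tbx3os1. For Ovol1 they number 690 with the pseudogene Gm31166 and 76 with AC126029.1. Of these genes only 9230102O04Rik lies on the same strand as the member it overlaps. No strand setting is stated, so for these 4 genes reads of a gene on the other strand cannot be told apart in the shared stretch. For 9230102O04Rik a strand setting would not separate them.

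Levels were compared between genes as the mean normalised count per kilobase of exon. In bladders without BBN, Gata3 was highest at 9564, with Foxa1 at 8686, Elf3 at 6374 and Klf5 at 6224. Gata3 and Foxa1 overlapped in their ranges, and so did Elf3 and Klf5. Grhl3 at 3171, Ehf at 2967 and Tbx3 at 2907 followed, with overlapping ranges, and Klf4 at 904 and Ovol1 at 379.6 were lowest. In vehicle tumours at 1 month the order opened with Elf3 at 5845, whose lowest library, at 4807, lay just under the highest Klf5 library, at 4839. Klf5 at 3134, Foxa1 at 3036 and Gata3 at 2999 overlapped each other there, and Tbx3, at 797, ranked behind Klf4, at 882, again with overlapping ranges. In BBN963 cells in DMSO (first experiment, 72 h), Elf3 also led, at 2136 per kilobase, ahead of Foxa1 at 1071 and Klf4 at 915 without overlap. Gata3, the highest member in bladders without BBN, ranked sixth of the 9 in these cells at 442, and Grhl3 was lowest at 88.2. The order differed in DMSO of the second experiment, where Foxa1 led at 24 h, at 559, and Elf3 stood at 289. At 72 h there, Elf3 led at 324, ahead of Foxa1 at 282, and Ovol1 was lowest at both times.

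Whether the tumours carry less of these factors than bladder without BBN is answered by the vehicle and no-BBN libraries, which show 5 of the 9 lower in tumours: Foxa1, Gata3, Tbx3, Klf5 and Grhl3. Of the 18762 genes tested, 26.4% were called in either direction and 11.4% were lower (limma, adjusted p under 0.05 by Benjamini-Hochberg over all genes tested). In tissue, fewer cells of a type and less RNA per cell cannot be told apart. The members' median log2 difference was -0.93, against -0.02 over all genes.

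Foxa1, a forkhead pioneer factor that opens chromatin, read 8908, 11725 and 9664 normalised counts in the vehicle tumours and 31016, 29944 and 25738 without BBN. It was lower by a log2 difference of -1.52 ± 0.14 (SE), a 2.87-fold difference (adjusted p = 1.02e-04), and every tumour library lay below every no-BBN library, an absence of overlap seen in 41.9% of all genes in either direction. Gata3, a zinc finger factor of luminal urothelium that T cells also express, read 11917, 10989 and 12887 in vehicle tumours and 46946, 37035 and 30151 without BBN. Its log2 difference was -1.65 ± 0.17, or 3.14-fold (adjusted p = 1.40e-04), again without overlap. Tbx3, a T-box factor that mostly represses its targets, read 3776, 6715 and 5350.0 in vehicle tumours and 22126, 19132 and 16512 without BBN. It showed the largest drop of the 9, with a log2 difference of -1.90 ± 0.20 and 3.72-fold (adjusted p = 1.57e-04), and the groups were far apart.

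Klf5, a Krüppel-like factor of epithelial growth and differentiation, read 11376, 25168 and 12357 in vehicle tumours and 35342, 32224 and 29543 without BBN. The second tumour library lay much nearer to the no-BBN group than the other 2 did, and the log2 difference was -1.08 ± 0.27 (adjusted p = 0.0143), which without vehicle replicate 1 was -0.87 and not called (adjusted p = 0.0515). Grhl3, a grainyhead factor needed for umbrella cell differentiation in mice, read 5312, 3446 and 5299.6 in vehicle tumours and 10253, 7747 and 8533 without BBN. Its log2 difference was -0.93 ± 0.20 (adjusted p = 0.00765), without overlap.

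Elf3 and Ehf, epithelial factors of the ETS family, were not called. Elf3 read 10656, 15068 and 13153 in vehicle tumours and 10905, 15635 and 15852 without BBN, so the groups covered the same span. Its log2 difference of -0.12 had a 95% interval of -0.56 to 0.32. Ehf read 6369, 22871 and 10899.6 in vehicle tumours and 18772, 16009 and 14847 without BBN. The second tumour library was above all no-BBN libraries and the other 2 were below them, and without that library Ehf was called lower, at -0.98 (adjusted p = 0.0141). Klf4, a Krüppel-like factor of barrier epithelia, differed by -0.14 (adjusted p = 0.794), and Ovol1, a zinc finger repressor that holds epithelial identity, by 0.04 (adjusted p = 0.951).

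**Figure D1:**
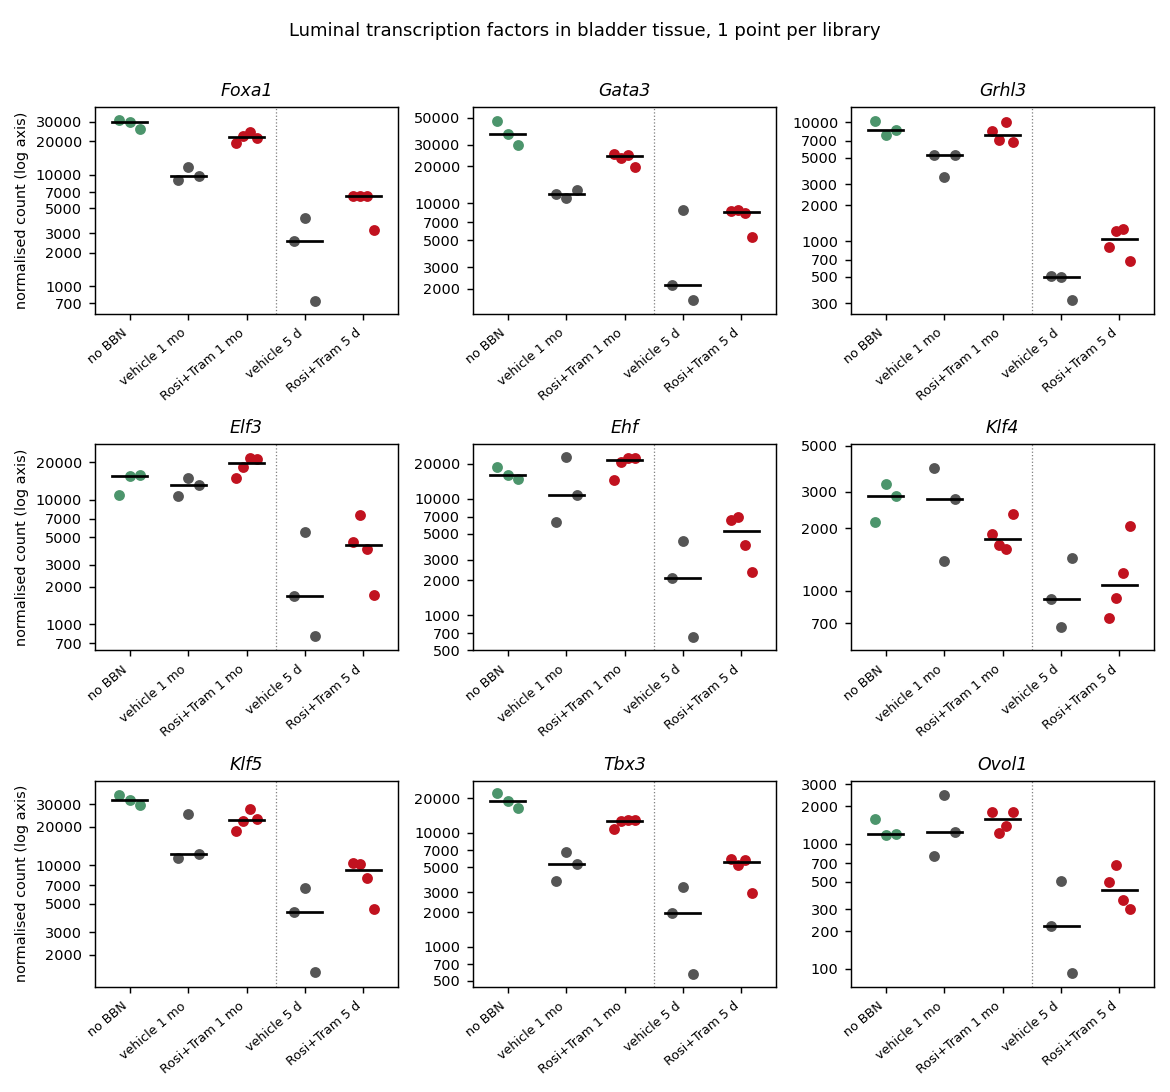
Normalised counts of the 9 genes in the tissue libraries on a log axis, with points for libraries and black bars for group medians. At 1 month the vehicle libraries of Foxa1, Gata3, Grhl3 and Tbx3 lie below all libraries of the other 2 groups.

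Other cell types moved with this difference. The mean log2 level of the 6 epithelial markers was 14.58 to 15.33 in vehicle tumours and 15.41 to 15.44 without BBN, with summed normalised counts of 192971 to 332782 against 342852 to 354308, and none of the 6 was at 0. The 9 T and NK cell markers summed to 56331 to 104708 in vehicle tumours and 2414 to 5934 without BBN, none at 0. Gata3, which T cells also express, was lower in the tumours. Vehicle replicate 2, the library with high Ehf and Klf5, had a mean log2 level of 13.94 for neutrophil markers, against 9.47 and 9.94 in the other 2, and of 10.60 for fibroblast markers, against 13.70 and 13.78. After scaling each library to its 6 epithelial markers, Foxa1 (-1.09), Gata3 (-1.22) and Tbx3 (-1.46) were still called lower, while Grhl3 (-0.50, adjusted p = 0.116) and Klf5 (-0.65, adjusted p = 0.234) were not. That scaling moves the median of all genes to 0.41. The part of cell composition in the unscaled differences was not tested further.

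Genes around these factors were counted from lists of partner and paralogue factors, luminal genes and basal or squamous genes. Of 24 tested partner and paralogue factors, 3 were higher and 12 lower in vehicle tumours, among them the nuclear receptor partner Rxra (-1.68 ± 0.15), Foxq1 (-1.92 ± 0.23) and the Gata3 paralogue Gata2 (-1.75 ± 0.22). Of 18 luminal genes, 2 were higher and 5 lower, with Tmprss2, a membrane protease, at -1.50 ± 0.13. Of 18 basal and squamous genes, 8 were higher and 3 lower, with the lowest adjusted p for the keratin Krt14, at 5.68 ± 0.78. The median log2 difference was -1.22 for the luminal list and 1.22 for the basal list, against -0.02 over all genes.

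Tumours given rosiglitazone with trametinib for 1 month were compared with vehicle tumours, as levels in the tissue libraries. Foxa1, Gata3, Grhl3 and Tbx3 rose, and none of the 9 fell. Of all genes tested, 23.8% were called in either direction and 10.1% were higher. The same vehicle libraries serve in this comparison and in the preceding one, so the pair are not independent.

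Foxa1 read 19166, 22217, 23985 and 21312 in the treated tumours, all above the highest vehicle library at 11725; 31.7% of all genes had no overlap in either direction. The log2 change was 1.11 ± 0.13, or 2.15-fold (adjusted p = 4.22e-04). Gata3 read 25479, 23389.6, 25031 and 19804 with treatment, and rose by 0.97 ± 0.16 (adjusted p = 0.00201) without overlap with vehicle. Tbx3 read 10875, 12615, 12938 and 12934 and rose by 1.26 ± 0.18, or 2.40-fold (adjusted p = 0.00122), the largest change of the 9. Grhl3 read 8457, 7060.0, 9957 and 6848 and rose by 0.80 ± 0.19 (adjusted p = 0.0137), with its lowest treated library above the highest vehicle library at 5312.

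Elf3 read 14845, 18475, 21593 and 21300.0 with treatment, and its lowest treated library fell just under the highest vehicle library at 15068. The log2 change of 0.55 ± 0.19 stood close to the threshold (adjusted p = 0.0550), and the authors' deposited table marks it as changed (log2 0.55, adjusted p = 0.0466). It was also called without treated replicate 1 (0.67, adjusted p = 0.0315). Klf5 read 18469.8, 22142, 27627 and 22901, with a log2 change of 0.57 ± 0.25 that was not called (adjusted p = 0.130). Ehf read 14575, 20728, 22672 and 22301, and its change of 0.76 ± 0.35 was not called (adjusted p = 0.144). Both overlapped vehicle through vehicle replicate 2. Without that library 8 of the 9 were called, with 4737 genes called in place of 4464: Ehf at 1.25 (adjusted p = 0.00373), Klf5 at 0.93 (adjusted p = 0.00195) and Elf3 at 0.67 (adjusted p = 0.0320) were higher, and Klf4 at -0.83 (adjusted p = 0.0213) was lower. Klf4 read 1883, 1668, 1585 and 2345 with treatment, inside the span of the vehicle libraries at 1393 to 3917. Ovol1 read 1793, 1219.8, 1400.3 and 1810.3, inside the vehicle span of 794 to 2480.3.

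Epithelial markers were higher with treatment too, with a mean log2 level of 15.38 to 15.74 and summed counts of 348716 to 436845, and 2 of the 6 were called higher. T and NK cell markers summed to 3568 to 19069 in treated tumours, below every vehicle library, and all 9 fell, as did all 7 macrophage markers. Estimated depth was 43.8 to 63.2 M reads in treated and 74.8 to 77.1 M in vehicle libraries, and its part in the changes was not tested. In this comparison Gata3 rose, T cell markers fell and epithelial markers were higher, and the part of each cell type in the Gata3 change was not tested. After scaling to the epithelial markers the changes were 0.54 for Foxa1 (adjusted p = 0.110), 0.40 for Gata3 (0.191), 0.23 for Grhl3 (0.431) and 0.69 for Tbx3 (0.0757), and none of these 4 was called. Klf4 was then called lower, at -0.99 (adjusted p = 0.0235). The scaling moves the median of all genes to -0.53. In BBN963 cells, both drugs for 72 h raised 4 of these 6 markers and lowered 2 in each experiment. The log2 changes of the markers there ran from -1.26 to 1.58 in the first experiment and -1.54 to 1.99 in the second. The part of such marker responses in the scaled tissue values was not tested.

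**Figure D2:**
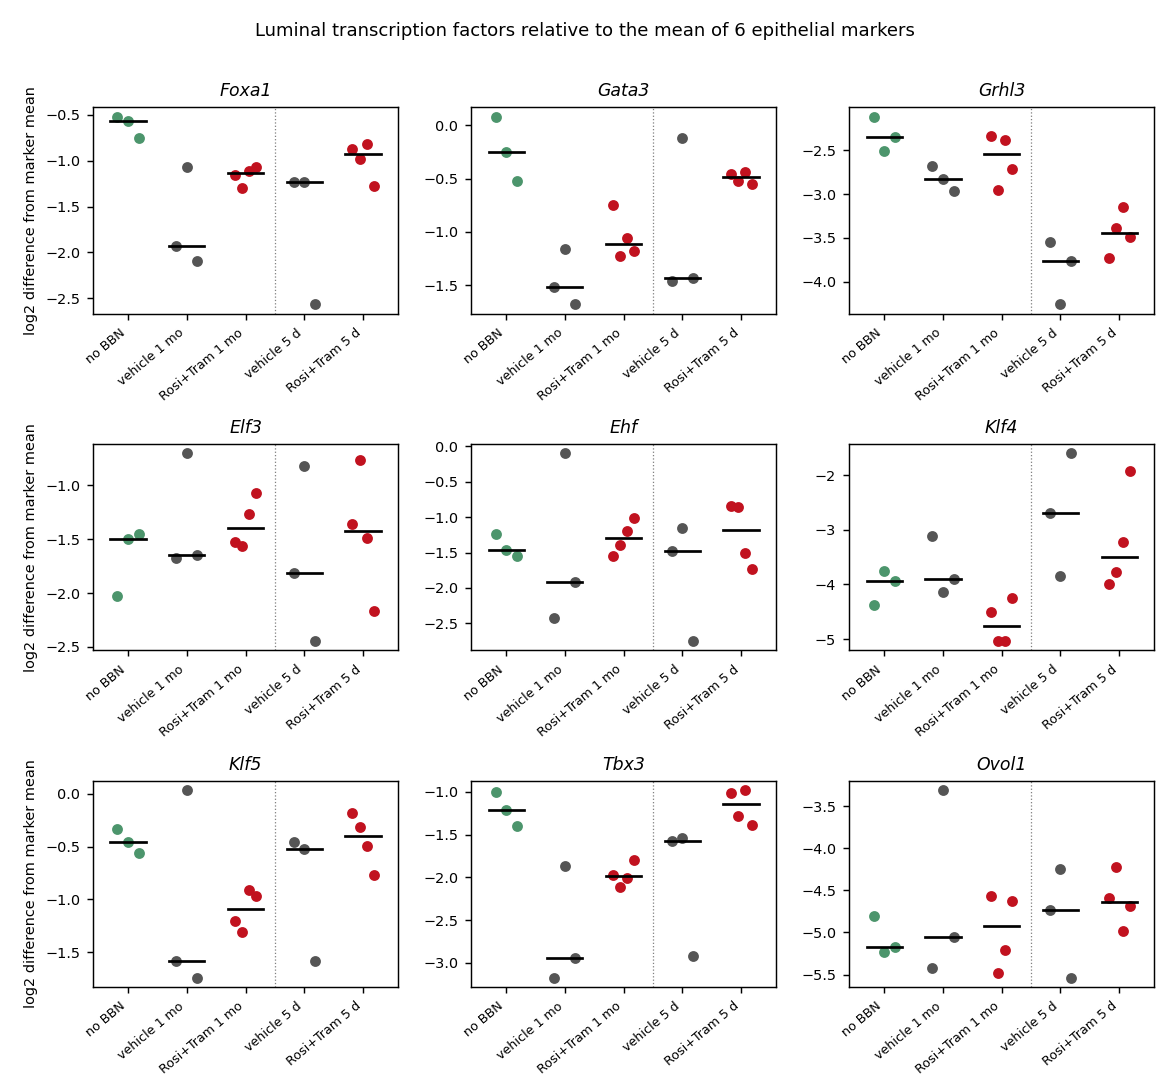
Log2 level of each gene minus the mean log2 level of 6 epithelial markers in the same library, for the tissue groups, with points for libraries and black bars for medians. For Foxa1 the vehicle libraries at 1 month sit at -1.93, -1.07 and -2.09, the treated at -1.30 to -1.07 and those without BBN at -0.76 to -0.52.

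Among partner and paralogue factors, 11 of 24 rose and 4 fell with treatment. Rxra rose by 1.34 ± 0.14 and Tbx2, the closest paralogue of Tbx3, by 1.65 ± 0.23, while the retinoic acid receptor Rara changed by -1.35 ± 0.21. Of 18 luminal genes 5 rose and 1 fell, with the receptor kinases Erbb3 at 1.70 ± 0.21 and Erbb2 at 1.41 ± 0.17. Of 18 basal and squamous genes 3 rose and 3 fell. The median change was 0.73 for the luminal list and 0.76 for the 9 factors, against 0.04 over all genes.

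Treated tumours were also set against bladder without BBN. Gata3 alone was called, at -0.68 ± 0.16 (adjusted p = 0.0383), against 4.01% of all genes called in either direction. That call did not hold in 6 of the 7 fits that leave out 1 of these libraries (adjusted p = 0.0575 to 0.139). Foxa1, Klf5 and Tbx3 also lay below no-BBN levels in every treated library, with log2 differences of -0.42 ± 0.13, -0.52 ± 0.25 and -0.64 ± 0.18 that were not called (adjusted p = 0.111, 0.307 and 0.0908). No overlap in either direction occurred in 22.3% of all genes. Grhl3, Elf3, Ehf, Klf4 and Ovol1 overlapped the no-BBN libraries.

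After 5 days of treatment none of the 9 was called, where 6.17% of all genes were called in either direction, 1043 of 16891, and 3762 had an unadjusted p under 0.05. The values varied widely between libraries of a group. Foxa1 read 2522, 4115 and 736 in vehicle tumours and 6489.8, 6473, 6409 and 3208 with treatment. The last treated library lay inside the vehicle span, and the log2 change was 1.46 ± 0.57 (adjusted p = 0.189). Tbx3 read 1991, 3327 and 576 in vehicle tumours and 5900.1, 5242, 5746 and 2947 with treatment, in the same arrangement, with a log2 change of 1.61 ± 0.57 (adjusted p = 0.152).

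Grhl3 was the only member without overlap at 5 days, at 505, 503 and 319 in vehicle and 891, 1211, 1271 and 687 with treatment, where 21.9% of all genes had no overlap in either direction. Its log2 change of 1.18 ± 0.28 was just short of the threshold (adjusted p = 0.0519), and it was called when treated replicate 4 was left out (1.36, adjusted p = 0.0335). The authors' deposited table marks Grhl3 alone among the 9 at 5 days (log2 1.20, adjusted p = 0.00252). Gata3 read 2141, 8847 and 1621 in vehicle and 8671, 8855, 8326 and 5275 with treatment. Vehicle replicate 2 reached the treated level, and without it Gata3 was called at 2.03 (adjusted p = 0.0107), against 1.28 ± 0.56 with it (adjusted p = 0.229).

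Klf5 read 4306, 6706 and 1459.9 in vehicle and 10465, 10263, 8009 and 4537 with treatment. Ehf read 2110.0, 4322 and 649.6 in vehicle and 6594, 7025, 3999 and 2340.4 with treatment. Elf3 read 1681, 5458 and 801 in vehicle and 4612, 7472, 4037 and 1725 with treatment. In these 3 genes vehicle replicate 3 was lowest, and the groups overlapped, with log2 changes of 1.18 ± 0.53, 1.33 ± 0.66 and 1.02 ± 0.70. Ovol1 (0.99 ± 0.57) and Klf4 (0.25 ± 0.39) overlapped as well. The median change of the 9 was 1.18, against 0.04 over all genes and 0.87 for the 6 epithelial markers, of which 2 were called higher. All 7 neutrophil markers (median -6.07), 5 of 7 macrophage markers (median -2.87) and 2 of 8 mast cell markers (median -5.09) fell in the same comparison, and none of the 9 T and NK cell markers was called. Epithelial markers summed to 33523 to 67619 in vehicle and 71592 to 98654 with treatment. Estimated depth also differed, at 32.9 to 71.7 M reads in vehicle and 17.7 to 23.0 M in treated libraries; the part of depth or of other cell types in the changes was not tested.

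The change at 1 month minus the change at 5 days ranged from -0.80 (Ovol1) to -0.31 (Gata3), and none of the 9 was called (adjusted p = 0.607 to 0.853), against 0.00534% of all genes. The interval for Foxa1, -1.71 to 1.00, spans differences in either direction. The 1-month and 5-day values were joined for this comparison as deposited, each set with its own normalisation.

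In cultured BBN963 cells 6 of the 9 T and NK cell markers stayed under 10 normalised counts in all DMSO libraries of the first experiment and 2 were at 0. Of 7 macrophage markers 3 stayed under 10, and the 7 summed to 4308 to 4804. Rosiglitazone alone for 72 h gave no call among the 9 (limma) and none among all 14218 genes (0% called), with 940 genes at an unadjusted p under 0.05. The 9 log2 changes ranged from -0.18 to 0.09. Klf5 read 2435, 2472, 2528, 2481 and 2560.0 in DMSO and 2668, 2582, 2707, 2725 and 2622 with rosiglitazone, without overlap, and its change was 0.09 ± 0.04 (adjusted p = 0.651). No overlap in either direction occurred in 1.89% of all genes. Foxa1 read 3448 to 3619 with rosiglitazone and 3307 to 3791 in DMSO, and the interval of its change was -0.10 to 0.08.

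Trametinib alone split the members. Foxa1 and Gata3 rose, Grhl3 and Klf4 fell, and the other 5 were not called, in a comparison where 71.1% of all genes were called. Foxa1 read 3539, 3577, 3791, 3307 and 3604 in DMSO and 5938, 5981, 6247, 6180.3 and 6400.1 with trametinib. The groups lay far apart, as the groups did not overlap for 59.7% of all genes, and the log2 change was 0.79 ± 0.04, or 1.73-fold (adjusted p = 2.98e-10). Gata3 read 1629, 1651, 1772, 1885 and 1854 in DMSO and 1883, 2154, 1966, 2103 and 2312 with trametinib. The groups touched at their edges, and the change was 0.24 ± 0.06 (adjusted p = 0.00321).

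Grhl3 read 233, 235, 235, 253 and 273 in DMSO and 152, 160.2, 159, 141 and 149.5 with trametinib. It fell by 0.69 on the log2 scale (SE 0.08, adjusted p = 2.79e-06) without overlap, the opposite direction to the treated tumours. Klf4 read 2874, 2704, 2821, 2809 and 2748 in DMSO and 1943, 1974, 2018, 2004 and 2243 with trametinib. It fell by 0.46 (SE 0.05, adjusted p = 4.41e-07), again without overlap. Elf3 changed by 0.10 and was not called (adjusted p = 0.0836), though it was without DMSO replicate 4 (0.14). The intervals of the remaining changes were -0.13 to 0.14 for Ehf, -0.06 to 0.11 for Klf5, -0.11 to 0.18 for Tbx3 and -0.23 to 0.05 for Ovol1.

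Both drugs together gave 6 calls, with 72.5% of all genes called. Foxa1 read 6259.9, 6122, 6485, 6107 and 5968 and rose by 0.80 ± 0.04 (adjusted p = 3.06e-10). Gata3 read 2020.0, 2232, 2205, 2246 and 1993 and rose by 0.28 ± 0.06 (adjusted p = 5.02e-04). Both lay above every DMSO library, and 61.1% of all genes had no overlap in either direction. Elf3 read 4464, 4668, 4724, 5235 and 4592 in DMSO and 5234, 5332, 5339, 5501 and 5273 with both drugs, and rose by 0.17 ± 0.05 (adjusted p = 0.00381) with 1 DMSO library reaching the treated group. Grhl3 read 136, 139, 149, 129 and 133 and fell by 0.84 (SE 0.08, adjusted p = 5.22e-07). Klf4 read 1933, 2031, 2000.3, 1957 and 1836 and fell by 0.52 (SE 0.04, adjusted p = 3.71e-08). Neither gene overlapped its DMSO libraries. Ovol1 read 538, 549.5, 504, 505 and 445 in DMSO and 419.6, 437, 409, 448 and 367 with both drugs, and fell by 0.29 (SE 0.07, adjusted p = 0.00312), with the groups touching. Tbx3, which rose in treated tumours, read 1242 to 1547 in DMSO and 1366 to 1481 with both drugs, and the interval of its change was -0.09 to 0.17. Ehf, at -0.12, was called only without DMSO replicate 4 (-0.18).

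**Figure D3:**
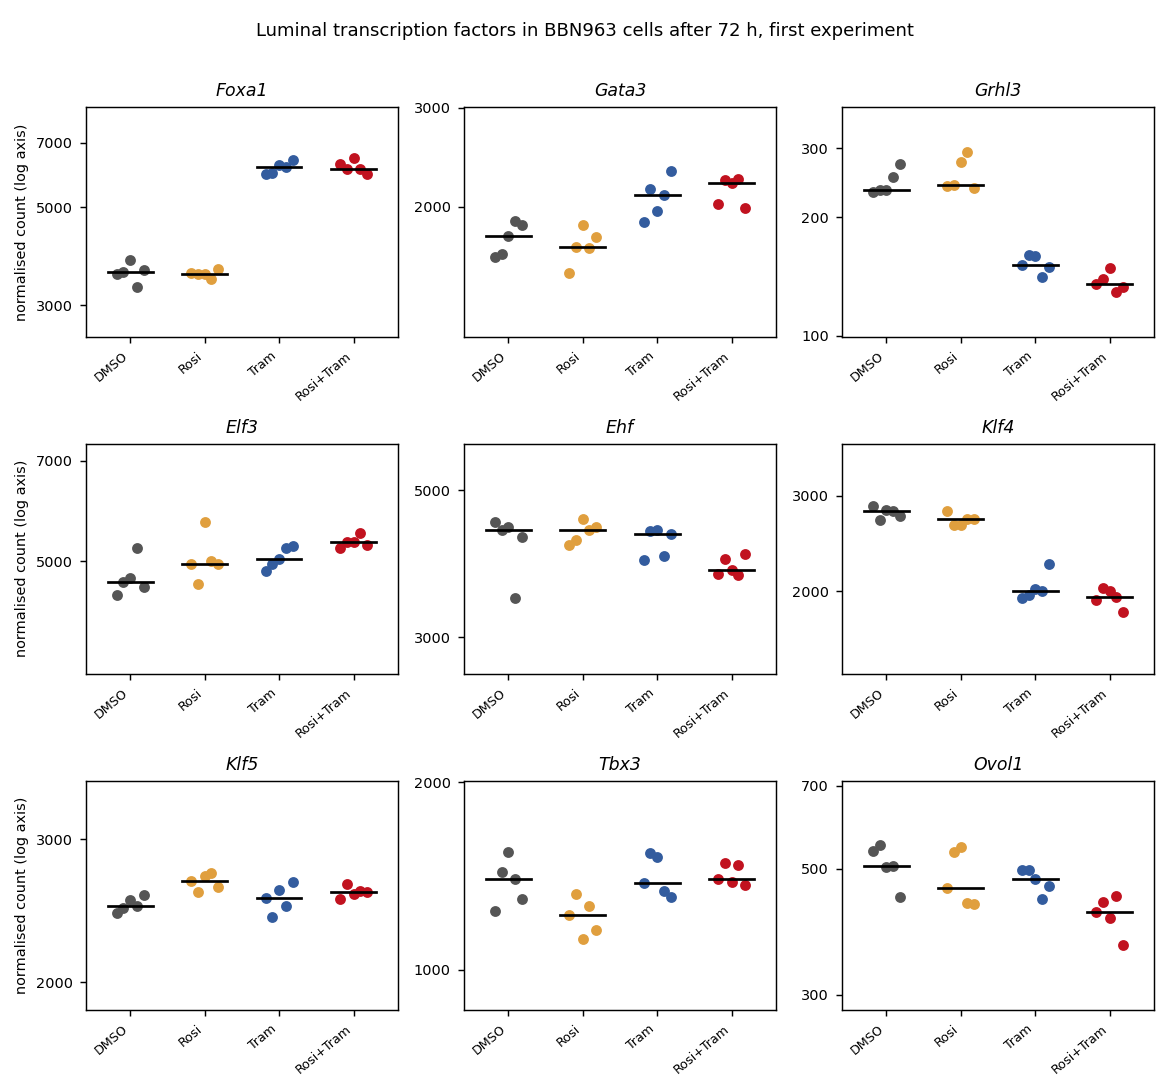
Normalised counts of the 9 genes in BBN963 cells after 72 h in DMSO, rosiglitazone, trametinib or both drugs on a log axis, 5 libraries each, with black bars for medians. Foxa1 sits at 5938 or above in every library with trametinib and at 3791 or below in every library without it.

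Adding rosiglitazone to trametinib was compared on values joined across the drug tables, gene by gene, through the DMSO libraries they share. None of the 9 was called, where 7.21% of all genes were, and the departure of both drugs from the sum of each also gave no call among the 9, against 1.94% of all genes. Adding rosiglitazone moved Foxa1 by 0.01, with an interval of -0.06 to 0.08, and Gata3 by 0.04, with an interval of -0.08 to 0.16. The largest differences were -0.20 for Ovol1 (adjusted p = 0.120) and -0.15 for Grhl3 (adjusted p = 0.278).

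Among partner and paralogue factors, trametinib raised 12 of 21 and lowered 5, and both drugs raised 12 of 22 and lowered 5. Among all genes, 71.1% were called with trametinib and 72.5% with both drugs. Grhl1, the paralogue of Grhl3, rose by 1.14 ± 0.05 with trametinib and 1.19 ± 0.05 with both drugs, where Grhl3 fell. Of 13 luminal genes, both drugs raised 11 and lowered 2, with the lowest adjusted p for Tmprss2, at 2.51 ± 0.04. Of 12 basal and squamous genes, 9 rose and 2 fell, with the lowest adjusted p for the cornified envelope gene Sprr1a, at 5.73 ± 0.06. The DMSO libraries are shared by these comparisons.

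In the second cell experiment, both drugs for 24 h gave calls for 6 of the 9, with 54.9% of all genes called. Elf3 read 658, 632 and 634 in DMSO and 1242, 1061, 1125 and 1095 with both drugs, far above. It rose by 0.81 ± 0.08, or 1.76-fold (adjusted p = 2.15e-08). Klf5 read 627, 652 and 688 in DMSO and 888, 1104, 969 and 1067 with both drugs, and rose by 0.61 ± 0.12 (adjusted p = 9.35e-05). Foxa1 read 1954, 1840.1 and 1790.1 in DMSO and 2564, 2739, 2735 and 2648 with both drugs, and rose by 0.52 ± 0.15 (adjusted p = 0.00524). None of the 3 genes overlapped DMSO.

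Ehf read 1576, 1671 and 1703 in DMSO and 2209, 2292, 2280.2 and 2104 with both drugs at 24 h, and rose by 0.43 ± 0.15 (adjusted p = 0.0159). That call did not hold without DMSO 24 h replicate 1 (adjusted p = 0.0573). Klf4 read 918, 863 and 915 in DMSO and 714, 706, 723 and 696 with both drugs, and fell by 0.34 (SE 0.07, adjusted p = 1.35e-04). Tbx3 read 341, 364 and 339 in DMSO and 286, 333, 313 and 270.4 with both drugs. It fell by 0.22 (SE 0.09, adjusted p = 0.0438), a call that 5 fits without 1 library did not give. Ovol1 was below DMSO in all 4 libraries and Grhl3 above in all 4, with changes of -0.50 ± 0.23 (adjusted p = 0.0655) and 0.37 ± 0.26 (adjusted p = 0.238) that were not called. Without the library labelled ATRA 72 h replicate 1, Ovol1 was called lower as well (-0.50, adjusted p = 0.0206). Groups did not overlap for 8 of the 9 members and for 58% of all genes.

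At 72 h, with 69.4% of all genes called, 4 members rose and 1 fell. Foxa1 read 938, 910.5 and 962 in DMSO and 2169.6, 2308, 2066 and 2175 with both drugs. It rose by 1.22 ± 0.15, or 2.32-fold (adjusted p = 1.20e-07), the largest change of the 9. Elf3 read 746, 696 and 711 in DMSO and 1109, 1032, 1081 and 974 with both drugs, and rose by 0.55 ± 0.08 (adjusted p = 1.49e-06). Klf5 read 532, 516 and 631 in DMSO and 711, 771, 785 and 756 with both drugs, and rose by 0.44 ± 0.12 (adjusted p = 0.00177). Each of these groups stood clear of DMSO, and so did 69.6% of all genes. Gata3 read 319.7, 306 and 309 in DMSO and 368, 438, 357 and 342 with both drugs, and rose by 0.26 ± 0.10 (adjusted p = 0.0171). Its call did not hold without DMSO 72 h replicate 2 (adjusted p = 0.0524) or without treated replicate 2 (adjusted p = 0.0828). Grhl3 read 62.7, 69.7 and 59.9 in DMSO and 45.1, 30.8, 28.8 and 41.0 with both drugs, and fell by 0.82 (SE 0.26, adjusted p = 0.00681). Klf4, lower at 24 h, differed from DMSO by -0.07 at 72 h, with an interval of -0.21 to 0.06.

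In DMSO alone, 3 members fell between 24 h and 72 h. Foxa1 fell by 0.99 on the log2 scale (SE 0.16, adjusted p = 3.47e-04), Ehf by 0.83 (SE 0.16, adjusted p = 0.00113) and Gata3 by 0.53 (SE 0.10, adjusted p = 0.00139), with 13.6% of all genes called. Klf4 differed by -0.18 and was not called (adjusted p = 0.0885), but was without the library labelled ATRA 72 h replicate 1 (adjusted p = 0.0337) and by DESeq2 on recovered reads (-0.19, adjusted p = 0.0444). With both drugs Foxa1 read 2564 to 2739 at 24 h and 2066 to 2308 at 72 h, against 1790.1 to 1954 and 910.5 to 962 in DMSO. The drug effect at 72 h minus that at 24 h was called for Foxa1 (0.70 ± 0.21, adjusted p = 0.0198), Grhl3 (-1.19 ± 0.37, adjusted p = 0.0199) and Klf4 (0.27 ± 0.09, adjusted p = 0.0403), with 24.6% of all genes called. The Klf4 call did not hold in 9 of the fits that leave out 1 library, and the Grhl3 call did not hold without DMSO 24 h replicate 2 (adjusted p = 0.0524). The Foxa1 call did not hold under quantile normalisation (adjusted p = 0.0673). Without the library labelled ATRA 72 h replicate 1, 6 members and 4713 genes (3443 with it) were called, with Elf3 at -0.27 (adjusted p = 0.0301), Ehf at -0.51 (adjusted p = 1.01e-04) and Ovol1 at 0.77 (adjusted p = 0.0224) added.

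**Figure D4:**
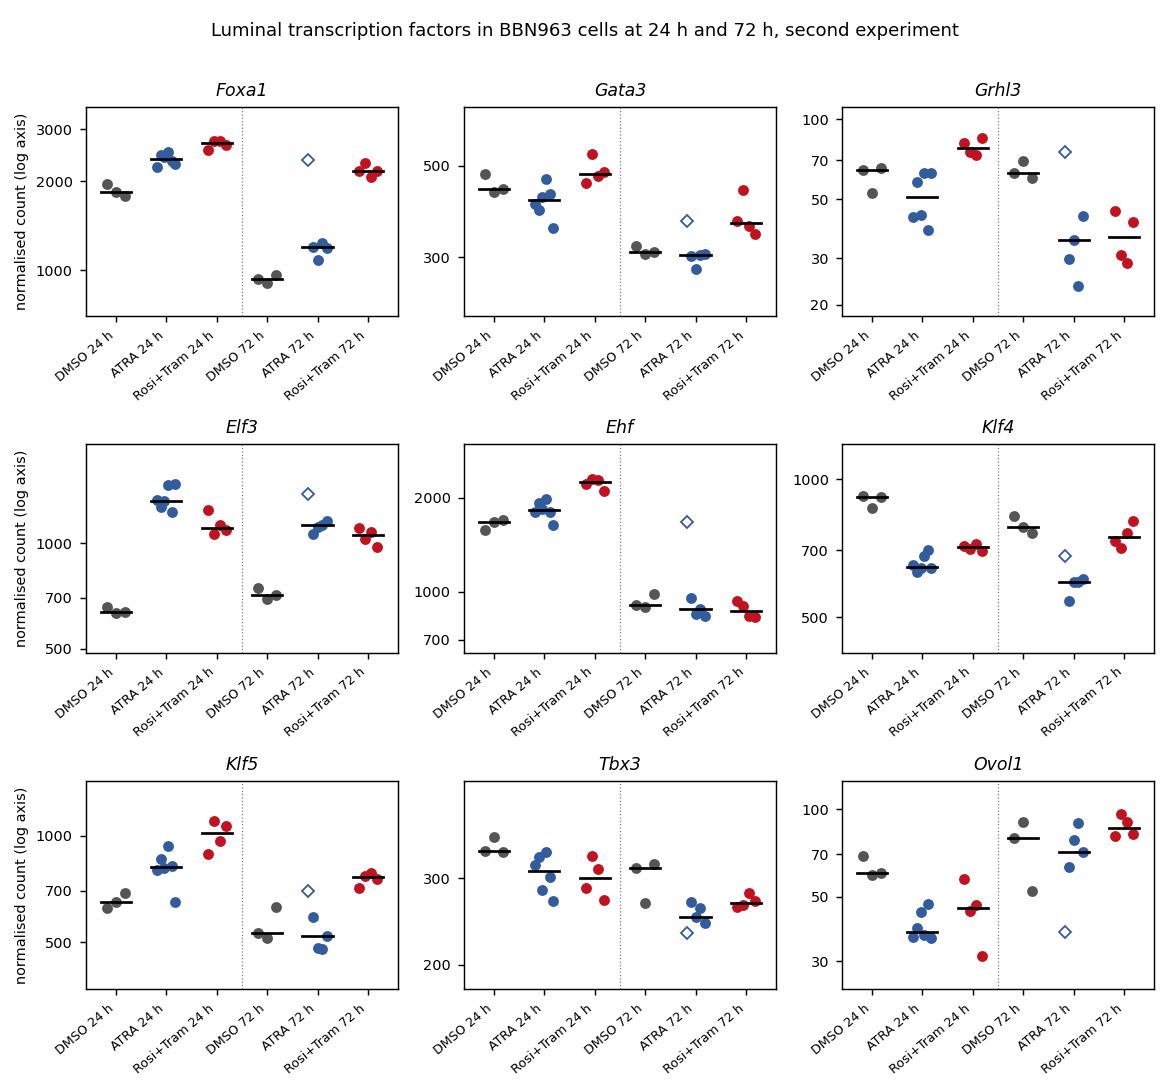
Normalised counts of the 9 genes in BBN963 cells after 24 h and 72 h in DMSO, ATRA or rosiglitazone with trametinib on a log axis, with points for libraries and black bars for medians. The open diamond is the library labelled ATRA 72 h replicate 1, which for Foxa1 reads 2355 where the other 4 of its group read 1088 to 1241.

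ATRA was compared with the same DMSO libraries as the drugs. For 24 h it raised Elf3 and Klf5 and lowered Klf4 and Ovol1, with 25.4% of all genes called. Elf3 had a lowest value of 1231, a median of 1323 and a highest value of 1480.5 in the 6 ATRA libraries, all above DMSO at 632 to 658. Its change of 1.07 ± 0.07, or 2.10-fold, was the largest of the 9 (adjusted p = 1.43e-10). Klf4 had a lowest value of 627, a median of 645 and a highest value of 702 against 863 to 918 in DMSO, and fell by 0.45 (SE 0.06, adjusted p = 8.91e-06) without overlap, which held for 31.5% of all genes. Ovol1 had a lowest value of 35.9, a median of 37.9 and a highest value of 47.2 against 59.4 to 69.2 in DMSO, and fell by 0.65 (SE 0.21, adjusted p = 0.0269). The Ovol1 call did not hold when any of the 3 DMSO libraries was left out.

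Klf5 had a lowest value of 650.4, a median of 817 and a highest value of 935 with ATRA at 24 h, and overlapped DMSO at 627 to 688. Its rise of 0.30 ± 0.11 (adjusted p = 0.0410) did not hold in 8 of the fits that leave out 1 library. Foxa1 had a lowest value of 2238, a median of 2384 and a highest value of 2517, all above DMSO at 1790.1 to 1954. Its change of 0.35 ± 0.14 was not called with all libraries (adjusted p = 0.0653) and was called without the library labelled ATRA 72 h replicate 1 (0.35, adjusted p = 1.06e-05). Gata3 changed by -0.14 (interval -0.32 to 0.05).

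At 72 h of ATRA 5 members were called, with 16.7% of all genes called. Elf3 read 1379.8, 1063, 1113, 1125 and 1161, all above DMSO at 696 to 746 (22.8% of all genes had no overlap), and rose by 0.70 ± 0.08 (adjusted p = 4.13e-07). Without the first of these libraries, the one labelled replicate 1, the rise was 0.64 ± 0.07 (adjusted p = 7.45e-08). Klf4 read 679, 543, 595, 598 and 606, all below DMSO at 763 to 829.8, and fell by 0.39 (SE 0.06, adjusted p = 9.63e-05); without replicate 1 the change was -0.44 ± 0.06.

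Foxa1 read 2355, 1201, 1088, 1241 and 1189.7 with ATRA at 72 h, against 910.5 to 962 in DMSO. The change was 0.53 ± 0.14 (adjusted p = 0.0135) with replicate 1 and 0.33 ± 0.06 (adjusted p = 1.32e-04) without it, a difference in the estimate that rests on replicate 1. Without DMSO 72 h replicate 2 the call did not hold (adjusted p = 0.0575). Grhl3 read 75.4, 29.7, 35.2, 23.6 and 43.2 against 59.9 to 69.7 in DMSO. Replicate 1 was above DMSO and the other 4 were below it, and the change was -0.73 ± 0.25 (adjusted p = 0.0440) with it and -0.97 ± 0.20 (adjusted p = 9.22e-04) without it; in 6 other fits without 1 library it was not called. Tbx3 read 232, 269, 250.1, 261 and 243 against 266 to 320.0 in DMSO, and its fall of 0.26 (SE 0.09, adjusted p = 0.0411) was not called without replicate 1 (-0.23, adjusted p = 0.0741). It was not called either without DMSO 72 h replicate 1 (adjusted p = 0.178) or 3 (0.170), or without ATRA replicate 3 (0.0535) or 5 (0.0644).

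Both drugs and ATRA were then compared at matched times. At 24 h, with 42.7% of all genes called, Grhl3 (0.63 ± 0.22, adjusted p = 0.0228), Klf5 (0.31 ± 0.10, adjusted p = 0.0128) and Gata3 (0.25 ± 0.08, adjusted p = 0.0170) were higher with both drugs, and Elf3 was lower (-0.25 ± 0.07, adjusted p = 0.00396). Without replicate 2 of both drugs, Gata3 (adjusted p = 0.0788) and Klf5 (adjusted p = 0.0561) were not called, and Grhl3 was not without ATRA replicate 5 (adjusted p = 0.0544) or replicate 4 of both drugs (adjusted p = 0.0609). Without replicate 1 of ATRA at 72 h, Foxa1 (0.17, adjusted p = 0.00509) and Ehf (0.28, adjusted p = 1.42e-04) were called higher too. At 72 h, with 67.4% called, Foxa1 (0.69 ± 0.13, adjusted p = 7.10e-05), Klf5 (0.46 ± 0.10, adjusted p = 3.22e-04), Klf4 (0.32 ± 0.06, adjusted p = 3.25e-05) and Gata3 (0.27 ± 0.08, adjusted p = 0.00623) were higher with both drugs. Without replicate 1 of ATRA at 72 h these 4 were again called, with Foxa1 at 0.89 ± 0.05. Elf3, which both treatments raised over DMSO, read 974 to 1109 with both drugs and 1063 to 1379.8 with ATRA at 72 h.

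Of 20 partner and paralogue factors, 4 were higher and 2 lower with ATRA at 24 h, and 4 were higher and 1 lower at 72 h. Among all genes, 25.4% and 16.7% were called with ATRA at these times. Pparg itself rose by 0.96 ± 0.14 and 0.98 ± 0.14, and Foxq1 by 0.78 ± 0.15 and 1.47 ± 0.15. With both drugs 6 were higher and 4 lower at 24 h, and 8 higher and 5 lower at 72 h, with the ETS factor Elf1 at 0.35 ± 0.08 and 0.65 ± 0.08. Among all genes, 54.9% and 69.4% were called with both drugs. Whether the lists differ from these shares was not tested. Of 13 luminal genes, ATRA raised 4 at each time and lowered 1 at 24 h, and both drugs raised 9 and 10 and lowered 2 and 3. Of 11 basal and squamous genes, ATRA raised 1 at 24 h, Sprr1a at 3.69 ± 0.31, which had the lowest adjusted p. ATRA lowered 5, among them Krt14 at -2.90 ± 0.29, while both drugs raised 4 and lowered 3.

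Side by side, Foxa1 rose with both drugs in tumours at 1 month (1.11), in the first cell experiment (0.80) and at 24 h (0.52) and 72 h (1.22) in the second. Gata3 rose by 0.97 in tumours, by 0.28 in the first cell experiment and by 0.26 at 72 h in the second, where at 24 h its change of 0.11 was not called (adjusted p = 0.358). The Gata3 call at 72 h did not hold without DMSO 72 h replicate 2 or without treated replicate 2. Grhl3 rose in tumours (0.80) and fell in cells at 72 h (-0.84 and -0.82). Tbx3 rose in tumours (1.26). In the first cell experiment its change was not called, with an interval of -0.09 to 0.17. In the second it was called lower at 24 h (-0.22), which several fits without 1 library did not give, and was not called at 72 h. After scaling to the epithelial markers, none of the rises in tumours was called, with Foxa1 at 0.54, Gata3 at 0.40, Grhl3 at 0.23 and Tbx3 at 0.69. Klf4 fell with both drugs in the first cell experiment at 72 h (-0.52) and at 24 h in the second (-0.34). At 72 h in the second it read 707 to 812 with both drugs and 763 to 830 in DMSO, and was not called. With ATRA it fell at both times (-0.45 and -0.39). The differences between tissue and cells were not tested.

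**Figure D5:**
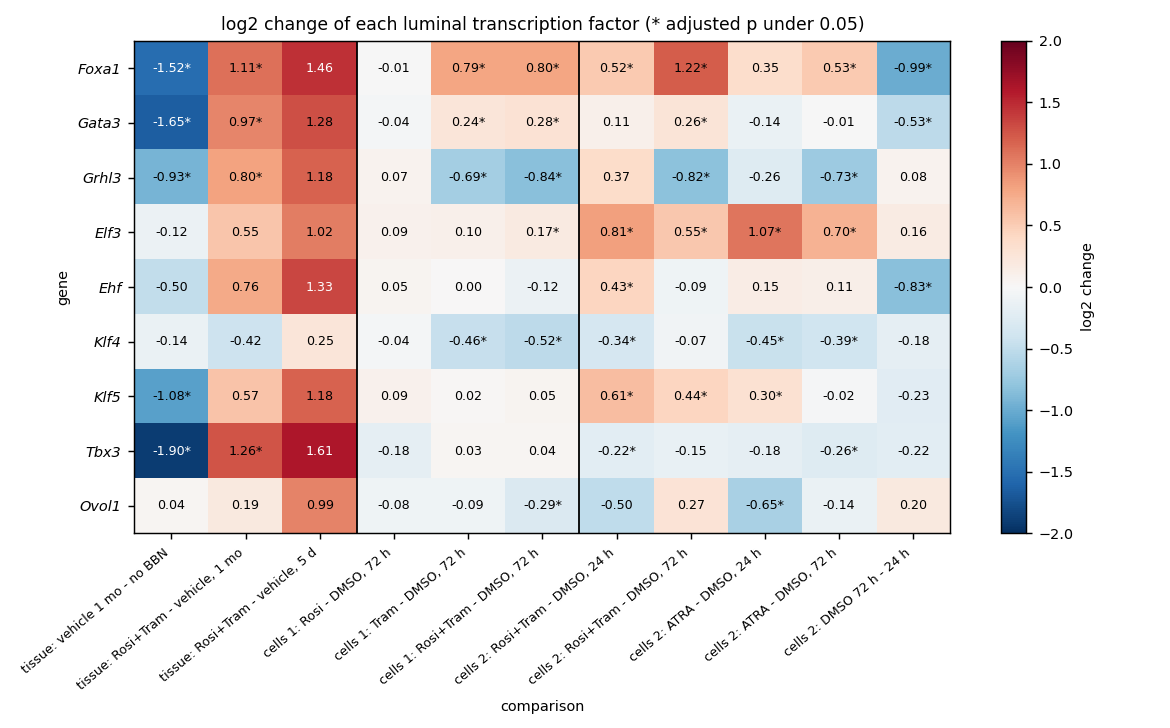
Log2 change of each of the 9 genes (rows) in the main comparisons (columns), red for higher and blue for lower, with asterisks where the adjusted p is under 0.05. Foxa1 is red wherever trametinib is part of the treatment, and Klf4 is blue or near 0 in every comparison shown but tissue at 5 days, where it is 0.25.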

How the data were processed

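Libraries were poly-A RNA-seq, per the labels' protocols. The values are DESeq2-normalised counts, a depth-scaled signal per gene deposited by the authors. Tools named in the submitters' processing notes are kallisto 0.44.0, bcl2fastq 2.19 and DESeq2 (version not given), with GRCm38.p6 and mm10. The log2 fold changes and adjusted p-values deposited by the authors are quoted only where named.

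Members and lists were chosen with earlier results of these data known. Each table was fitted whole with limma 3.58.1 (R 4.3.3, trend and robust variance) on log2(value + 1), keeping genes with values of 10 or more in a number of libraries equal to the smallest group; p-values were adjusted by Benjamini-Hochberg over all genes tested and called under 0.05. A fold change on this scale understates the change of low genes. The fit was tested on simulated data. For rosiglitazone, 1655 misaligned rows were realigned by the deposited mean, and 26 rows named by calendar dates were left out of the trametinib and combination tables, no member among them. Levels of the first cell experiment were joined across tables, gene by gene, through their DMSO libraries, and each drug was tested against DMSO in its own table. The comparison of both drugs with trametinib and the departure from the sum of each were fitted on the joined values. In the second, 100% of values above 0 came within 0.1 of a whole read, so edgeR 4.0.16 and DESeq2 1.42.0 were run on recovered reads as alternatives.

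Alternatives also covered fits of only the compared groups, each library left out, no filter, a pseudocount of 0.5 or 4, quantile normalisation and, chosen after seeing the data, scaling to 6 epithelial markers and leaving out the library labelled ATRA 72 h replicate 1. Named genes of a list are at most the 3 called with the lowest adjusted p. Intervals are 95% and cover the spread between libraries. Precision is limited by groups of 3 to 6 libraries.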

Additional observations from a re-analysis of the deposited data

Results flagged for a closer look

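Among 90 sets of 4 to 10 libraries of a group and member, 8 held a library far from the others; about 1 in 20 would by chance. Of the 5-day treated tumours, replicate 4 was low for 3 members, with Foxa1 at 3208 (others 6409 to 6489.8), Gata3 at 5275 (others 8326 to 8855) and Tbx3 at 2947 (others 5242 to 5900.1). Tbx3 in treated tumours at 1 month was low in replicate 1, at 10875 (others 12615 to 12938). In DMSO cells of the first experiment Ehf was low in replicate 4, at 3438 (others 4246 to 4481), and with trametinib Klf4 was high in replicate 5, at 2243 (others 1943 to 2018). The library labelled ATRA 72 h replicate 1 was high for Foxa1, at 2355 (others 1088 to 1241), and for Ehf, at 1678 (others 834 to 957).

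The effect of both drugs in the second cell experiment differed between 72 h and 24 h by the test of the difference for Foxa1 (0.70 on the log2 scale), Grhl3 (-1.19) and Klf4 (0.27).

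For Grhl3, every treated tumour library lay above vehicle at 1 month (0.80) and at 5 days (1.18). Every cell library with both drugs at 72 h lay below DMSO (-0.84 in the first experiment, -0.82 in the second). Groups did not overlap, in either direction, for 31.7% and 21.9% of all genes in the tissue comparisons. In the cell comparisons that share was 61.1% and 69.6%. The Grhl3 change at 5 days was not called. After scaling to epithelial markers its change at 1 month was 0.23 (limma, adjusted p = 0.431). For Tbx3, every treated tumour library at 1 month lay above vehicle (1.26). Every cell library with both drugs at 24 h lay below DMSO (-0.22), in a comparison where 58% of all genes had no overlap. That fall of Tbx3 was not called by edgeR or DESeq2 on recovered reads, nor in several fits that leave out 1 library. These differences between tissue and cells were not tested.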

How the results depend on the processing

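Across the 18 comparisons 54 member changes were called; of 821 values of them under the alternatives run, 746 stayed called, 75 were no longer past the threshold and none reversed, and 33 changes were called under every alternative. With scaling to 6 epithelial markers, the members called were 3 in place of 5 for vehicle tumours against no BBN, 1 in place of 4 for treatment at 1 month and 0 in place of 1 for treated tumours against no BBN, and genes called were 442 in place of 753 for the last, 1608 in place of 1043 at 5 days and 0 for the difference between times. With quantile normalisation they were 7 for treatment at 1 month, 0 for treated tumours against no BBN and 1 in place of 3 for the drug effect at 72 h minus 24 h, and 26 genes were called for the tissue difference between times. With only the compared groups fitted, members called were 2 (genes 1407) for treated tumours against no BBN, 1, Ehf, for both drugs against trametinib (genes 2024 in place of 1079), 2 in place of 5 for ATRA at 72 h (genes 731 in place of 2344) and 6 for the drug effect at 72 h minus 24 h, and 3229 genes in place of 1904 for DMSO at 72 h against 24 h. With no filter, ATRA at 72 h called 3 members, and genes called were 5 for rosiglitazone, 2 for the tissue difference between times and 193 in place of 291 for the departure from additivity; with a pseudocount of 4 the tissue difference between times called 4. Without the library labelled ATRA 72 h replicate 1, the drug effect at 72 h minus 24 h called 6 members, and DMSO at 72 h against 24 h called 3391 genes. On recovered reads edgeR and DESeq2 called 7670 and 7592 genes for both drugs at 24 h (limma 7694) and 2610 and 2854 for ATRA at 72 h. Tbx3 with both drugs at 24 h was not called by either.

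Leaving out 1 library at a time, members called ranged from 4 to 8 for treatment at 1 month, 0 to 1 for treated tumours against no BBN, 0 to 1 at 5 days, 2 to 4 for ATRA at 24 h, 3 to 4 for ATRA at 72 h, 2 to 3 for the drug effect at 72 h minus 24 h and 2 to 4 for both drugs against ATRA at 24 h. Genes called ranged from 3217 to 5191 for vehicle against no BBN, 136 to 595 for treated against no BBN, 428 to 1001 at 5 days, 0 to 126 for the tissue difference between times, 0 to 71 for rosiglitazone, 187 to 1213 for the departure from additivity, 2129 to 3432 for ATRA at 24 h, 1326 to 2528 for ATRA at 72 h and 924 to 1698 for DMSO at 72 h against 24 h. The cause of these shifts was not tested. No paired analysis was possible because the labels give the groups no shared replicate numbers. Low Grhl3 and Ovol1 counts in the second cell experiment limit how small a change could be detected.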

Other observations

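Across the 10 libraries of the 1-month tissue set, the 9 factors varied together to different degrees, as a description over libraries that share groups and normalisation. Pearson's r of log2 values was 0.988 for Foxa1 with Tbx3, 0.941 for Foxa1 with Gata3 and 0.871 for Foxa1 with Klf5, and -0.781 for Ehf with Klf4. Over the 25 libraries of the second cell experiment it was 0.865 for Foxa1 with Klf5, 0.813 for Foxa1 with Gata3, -0.750 for Elf3 with Klf4 and -0.821 for Ehf with Ovol1.

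The gene most like each factor outside the set, by the same measure, was Nr6a1 for Foxa1 (0.987), Adgrl2 for Gata3 (0.988), Bcar3 for Tbx3 (0.990) and Cplane2 for Klf5 (0.991) among 14247 genes in the 1-month tissue set. For Grhl3 it was Abhd6 (0.981), for Klf4 Has1 (0.974), for Ehf Macroh2a2 (0.963), for Ovol1 Atad3a (0.951) and for Elf3 Prorp (0.939). In the second cell experiment, among 10161 genes, it was Ttc6 for Foxa1 (0.981), a gene on the other strand that lies 17197 bases from Foxa1 and is its nearest protein-coding gene. There it was Foxp1 for Gata3 (0.958), Enpp2 for Ehf (0.955), Tet2 for Klf5 (0.938), B3gnt3 for Elf3 (0.919), Sdc1 for Klf4 (0.895), Cdipt for Ovol1 (0.887), Prom2 for Grhl3 (0.854) and Osr1 for Tbx3 (0.816).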
